A study of Mus musculus with 4 samples.

Results

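The genes described here encode the digestive enzymes of the lysosome, proteins of its membrane and the transcription factors that set the level of both. The list held 42 gene symbols: 11 cathepsins and other proteases, 21 glycosidases, sulfatases, lipases and their activator proteins, 7 membrane proteins and 3 regulators. A member was taken as measured where at least 1 probe set carried its symbol and no other, which held for 41 of the 42, out of 18193 genes named in this way on the array, with 90 probe sets among them. Cd63 was not analysed here. RNA came from unstimulated L929 cells, which are fibroblasts of mouse connective tissue derived as a single clone, and from unstimulated NIH3T3 cells, which are fibroblasts of mouse embryos. Each line was hybridised to 2 arrays. The submitters describe L929 as sensitive to necrosis and NIH3T3 as sensitive to apoptosis, and neither line received an agent or a genetic change. With 1 line on each side, the manner of death and every other difference between the lines cannot be told apart. The labels do not say whether the 2 samples of a line were separate cultures, so the spread behind each p-value is only that between these samples and may be technical.

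Lysosomes are acidic organelles in which cathepsins cut proteins, glycosidases and sulfatases take sugar chains apart from their ends, and lipases and ceramidases break down membrane lipids. The enzymes are made in the endoplasmic reticulum and carried to the lysosome by mannose 6-phosphate receptors or by other sorting receptors, and an inherited loss of single enzymes causes storage disease. The factors TFEB, TFE3 and MITF bind short E-box elements in the promoters of many of these genes, and are held in the cytoplasm when the kinase mTORC1 is active at the lysosomal surface. In damaged cells, cathepsins that leave the lysosome can take part in cell death.

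Signals are MAS5 intensities in arbitrary units, scaled so that the 4 arrays share a trimmed mean, and a gene is given by its brightest tested probe set. Each log2 difference is L929 minus NIH3T3, taken after adding 8.01 to every signal, so folds of dim genes are understated. To be tested, a probe set had to exceed a filter level of 17.3, which is the 40th percentile of scaled signals, in both samples of a line. Calls needed a fold over 1.5 and a limma adjusted p under 0.05. Both thresholds are those of the series' design text, which names no test. As deposited, the trimmed mean of NIH3T3 replicate 2 was 210.3 against 135 to 142 on the other 3 arrays. After scaling, arrays of the same line correlated with r = 0.981 and 0.983 across 23268 tested probe sets, which are not independent replicates. Of 10 fibroblast marker genes 9 lay above the filter level on all 4 arrays, and Fap lay below it on all 4. The number of arrays limits the precision of every value.

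More of the lysosomal members were lower than higher in L929. Of 38 tested members 15 were called lower, 3 were called higher and 20 were not called. Lower calls made up 39.5% of the tested members, beside 17.6% of all 12676 genes tested, and higher calls 7.89%, beside 17.3%, while 34.8% of all genes were called in either direction. The median log2 difference of the members was -0.39, beside 0.014 for all genes tested, and 29 of 38 members lay below 0, beside 49.2% of all genes. Both L929 arrays lay below both NIH3T3 arrays for 27 members, beside 36.2% of all genes, and above them for 8, beside 37.6%. The members were chosen with results of these data known, so these counts carry no test of the list. With the values as deposited, 12 members were lower and 2 higher, beside 13.9% and 6.31% of all genes, and the median of all genes moved to -0.26. Relative to that median of all genes, the members' median stood at -0.41 as deposited and at -0.41 after scaling. It was -0.24 when probe sets with the name endings _s_at, _x_at and _a_at were left out, and -0.48 to -0.28 with 1 array left out, the smallest size being without NIH3T3 replicate 1.

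**Figure D1:**
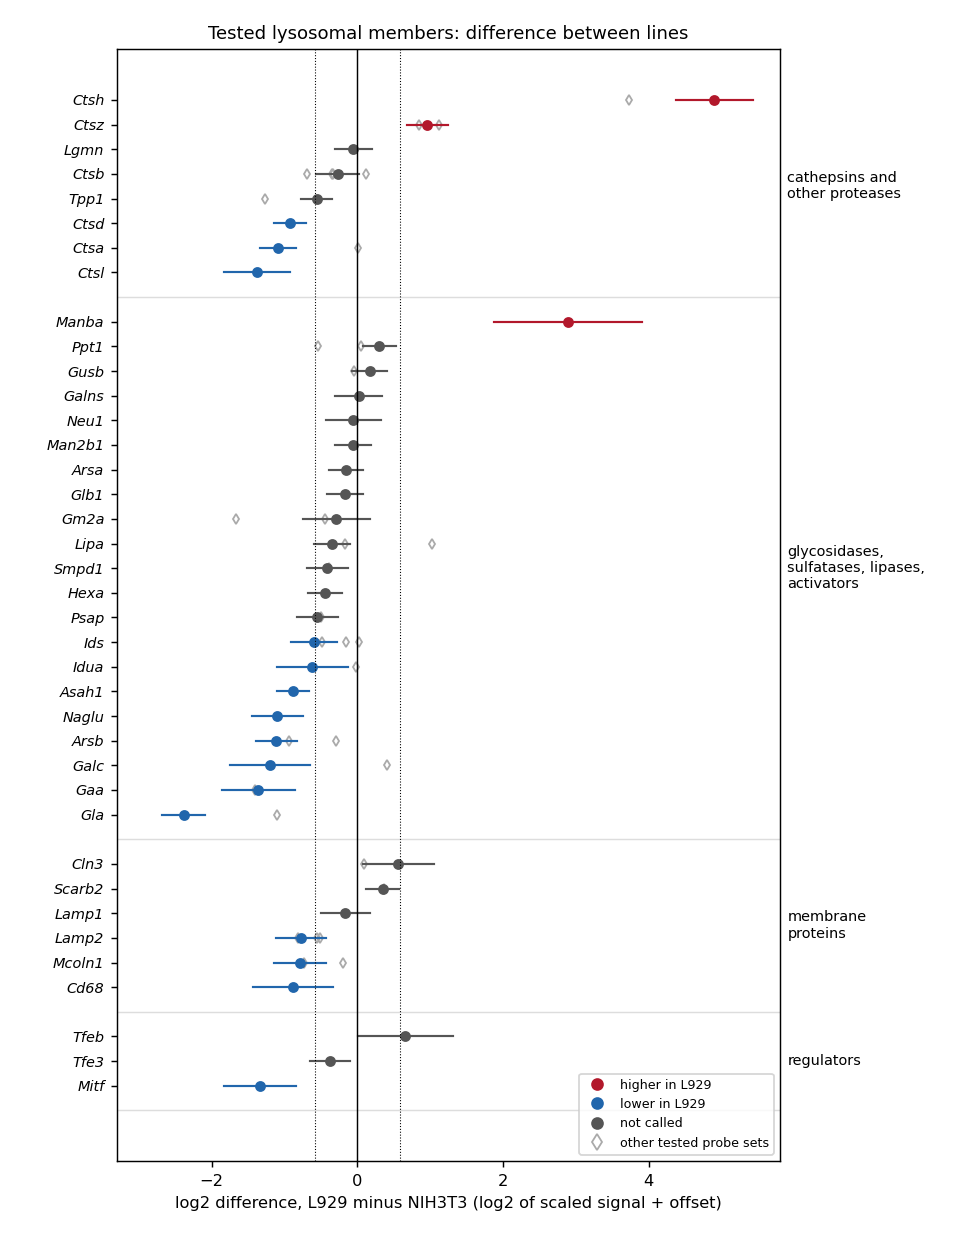
The plot of differences by member shows the log2 difference between lines on the x axis for each of the 38 tested members, grouped by role, with the 95% interval of the limma fit as a bar and other tested probe sets of the same gene as open diamonds. Dotted lines mark the 1.5-fold threshold: 15 members are called to the left of it and 3 to the right, with Ctsh and Gla as the ends.

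Among the proteases, 2 of 8 tested members were higher and 3 were lower in L929. Ctsh encodes cathepsin H, a cysteine protease that trims proteins from their amino end, and it was the member with the highest difference. Its signal was 482 and 471 in L929 and 5.57 and 11.3 in NIH3T3. The NIH3T3 values lay below the filter level on both arrays, so Ctsh was at least 27.6-fold higher in L929 (476 ± 7.86 against 8.45 ± 4.07, mean ± SD, n = 2 arrays per line, limma adjusted p = 1.4e-06). The second tested Ctsh probe set stood at 3.73 on the log2 scale. Ctsz encodes cathepsin Z, which removes single residues from the carboxyl end. It measured 3234 and 3404 in L929 and 1800.0 and 1606 in NIH3T3, with no overlap, a 1.95-fold excess (log2 difference 0.96, SE 0.12, limma adjusted p = 0.00031). All 3 Ctsz probe sets lay between 0.84 and 1.12, and the call was lost with the values as deposited (0.68, adjusted p = 0.077).

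The lower proteases were Ctsl, Ctsa and Ctsd, which differ in catalytic type. Ctsl encodes cathepsin L, a cysteine endopeptidase known as the major excreted protein of transformed NIH3T3 cells. Its signal was 2718 and 2246 in L929 and 7643 and 5382 in NIH3T3. The NIH3T3 arrays differed from each other more than the L929 arrays did, yet both lay above them, a 2.59-fold difference (log2 difference -1.37, SE 0.20, limma adjusted p = 0.00066). Ctsa encodes cathepsin A, a serine carboxypeptidase that also shields beta-galactosidase and sialidase inside the lysosome. It measured 396 and 458 in L929 against 941 and 888 in NIH3T3, 2.12-fold lower (log2 difference -1.09, SE 0.11, adjusted p = 7.8e-05). A dimmer Ctsa probe set stood at 0.014, and the average of both probe sets at -0.54, which is under the fold threshold. Ctsd, the aspartic protease cathepsin D, gave 869 and 866 in L929 and 1643 and 1676 in NIH3T3, 1.90-fold lower (log2 difference -0.93, SE 0.094, adjusted p = 9.7e-05). Replicates of Ctsd differed by far less than the lines did.

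The other proteases were not called or not tested. Tpp1, the tripeptidyl peptidase lost in a childhood neuronal ceroid lipofuscinosis, measured 838 and 832 in L929 and 1218 and 1246 in NIH3T3. Its 1.47-fold difference had a limma adjusted p of 0.0015 but missed the fold threshold, while its second probe set stood at -1.27 on the log2 scale. Tpp1 was called lower with quantile normalization (-0.59) and with its probe sets averaged (-0.91). Ctsb, cathepsin B, the cysteine protease most often studied in lysosomal cell death, gave 2383 and 2493 against 3169.8 and 2742. The Ctsb arrays did not overlap between lines, but the difference of -0.27 (95% interval -0.57 to 0.022, limma adjusted p = 0.12) was not called, and its 5 tested probe sets ran from -0.70 to 0.12. Lgmn, the asparaginyl endopeptidase legumain that processes other cathepsins, overlapped between lines at 342 and 389 against 391 and 368, with an interval of -0.31 to 0.20. Ctsc, Ctsf and Ctss were not tested. Ctss, a cathepsin of antigen-presenting cells, measured 8.53 and 5.14 in L929 and 2.43 and 6.61 in NIH3T3, and Ctsc, which activates serine proteases of blood cells, 9.90 and 10.3 and 7.69 and 5.08. For Ctsf the brighter probe set gave 17.9 and 10.6 in L929, where 1 of 2 arrays passed the filter level, and 15.1 and 8.43 in NIH3T3.

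**Figure D2:**
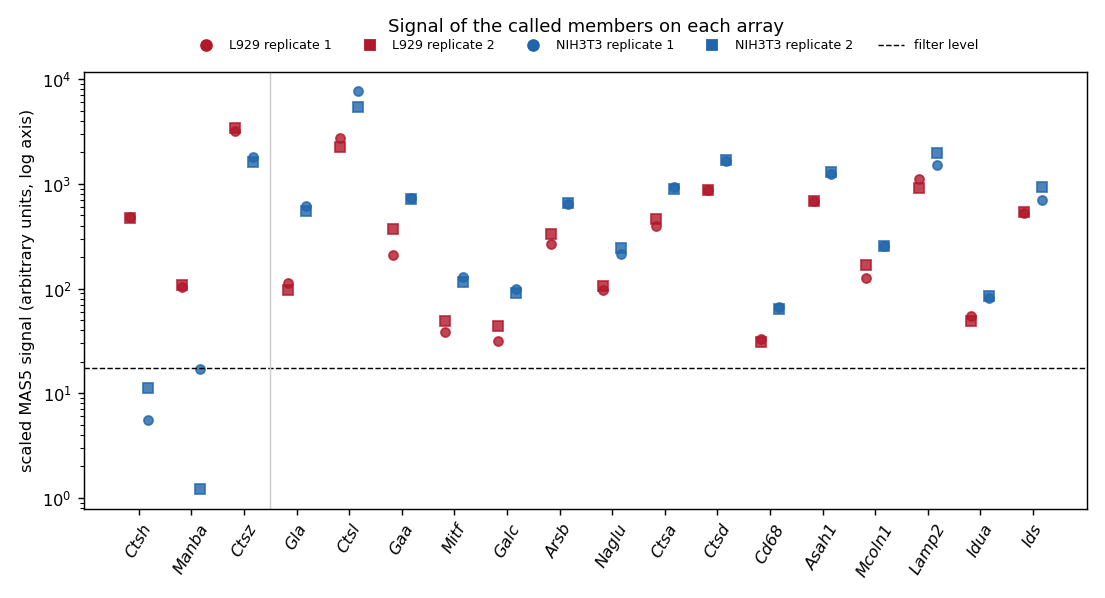
The plot of signals by array shows the scaled MAS5 signal of the 18 called members on a log axis, with L929 in red, NIH3T3 in blue, and circles and squares for replicates 1 and 2. The 3 members at the left are higher in L929, and only Ctsh and Manba fall below the dashed filter level, in NIH3T3. The other 15 are higher in NIH3T3 on both arrays.

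Among enzymes of sugar and lipid breakdown, 8 of 21 members were lower in L929 (38.1%, beside 17.6% of all genes). In the same group 1 was higher (4.76%, beside 17.3%), and the median log2 difference was -0.41. Gla encodes alpha-galactosidase A, which removes galactose from glycolipids and is lost in Fabry disease, and it had the most negative difference of the members. The signal was 113 and 96.8 in L929 and 608 and 550.1 in NIH3T3, 5.21-fold lower (log2 difference -2.38, SE 0.13, limma adjusted p = 2.9e-06). A second Gla probe set was also below 0, at -1.10. Gaa, the acid alpha-glucosidase that degrades glycogen, measured 209 and 367 in L929 and 730.5 and 718 in NIH3T3, 2.57-fold lower (log2 difference -1.36, SE 0.22, adjusted p = 0.0012), and its other probe set gave -1.40. The L929 replicates of Gaa lay farther apart than those of NIH3T3, without reaching them. Manba, the beta-mannosidase of N-glycan breakdown, was the exception in direction. It gave 103 and 107 in L929 and 17.1 and 1.21 in NIH3T3, where both arrays lay below the filter level, at least 6.08-fold higher in L929 (limma adjusted p = 0.00094). Man2b1, the lysosomal alpha-mannosidase that works on the same glycans, overlapped between lines at 321 and 300.2 against 314 and 335.

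Members that act on glycosaminoglycans were no list of their own and are given one by one. Naglu, which removes N-acetylglucosamine from heparan sulfate, measured 97.8 and 107 in L929 and 213 and 244 in NIH3T3, 2.14-fold lower (log2 difference -1.10, SE 0.15, limma adjusted p = 0.00051). Arsb, the sulfatase of dermatan sulfate, gave 264 and 331 against 643 and 654, 2.16-fold lower (log2 difference -1.11, SE 0.12, adjusted p = 0.00015), and its 3 tested probe sets ran from -1.11 to -0.30. For both genes the L929 arrays lay clearly under the NIH3T3 arrays. Idua and Ids, which act on the iduronic acid of heparan and dermatan sulfate, lay just past the threshold. Idua gave 54.4 and 48.4 in L929 and 80.9 and 85.5 in NIH3T3 (log2 difference -0.62, SE 0.21, limma adjusted p = 0.043). Its call was lost in 11 of 17 alternatives. Among these were median scaling (limma adjusted p = 0.06), quantile normalization (0.068), the values as deposited (0.16) and the replicate block (0.061). It was also lost in each fit with 1 array left out, where the difference was -0.69 to -0.55. In such a fit 1 line is a single sample that is assumed to vary like the other line, so a lost p-value says little of stability. A second Idua probe set stood at -0.015. Ids gave 529.9 and 541 against 707 and 936 (log2 difference -0.60, SE 0.13, limma adjusted p = 0.007). Its call was lost in 7 of 17 alternatives, with a fold under the threshold without L929 replicate 1 (-0.58) or NIH3T3 replicate 2 (-0.40), and its other tested probe sets reached 0.024. Galns, a sulfatase of keratan sulfate, and Gusb, a glucuronidase, were not called, at 0.021 (95% interval -0.30 to 0.34) and 0.17 (-0.07 to 0.41).

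Asah1 and Galc, which act on sphingolipids, were also lower in L929. Asah1 encodes acid ceramidase, which cleaves ceramide into sphingosine and a fatty acid. Its signal was 683 and 686 in L929 and 1234 and 1307 in NIH3T3, 1.84-fold lower with replicates close together (log2 difference -0.88, SE 0.093, limma adjusted p = 0.00012). Galc, the galactosylceramidase lost in Krabbe disease, was dimmer at 31.4 and 43.5 in L929 and 99.96 and 91.4 in NIH3T3 (2.30-fold lower, log2 difference -1.20, SE 0.24, limma adjusted p = 0.0038). The direction of Galc depended on the probe set, because a second tested one stood at 0.41. That second probe set was the brighter when NIH3T3 replicate 1 or NIH3T3 replicate 2 was left out, and gave 0.38 and 0.43. Psap encodes prosaposin, the precursor of the saposin activators, and measured 2329.7 and 2338 in L929 and 3548 and 3302 in NIH3T3. Its 1.47-fold difference was under the fold threshold (adjusted p = 0.0063), and passed it at -0.60 without NIH3T3 replicate 2, at -0.62 with quantile normalization and at -0.84 as deposited. Smpd1, acid sphingomyelinase, and Hexa, the alpha subunit of beta-hexosaminidase, also had adjusted p-values under 0.05 with folds of 1.33 and 1.36 toward NIH3T3. Gm2a, the activator that presents ganglioside to that hexosaminidase, differed by -0.29 (95% interval -0.75 to 0.17), with a dimmer probe set at -1.67. Arsa, the sulfatase of sulfatide, differed by -0.16 (-0.40 to 0.072).

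Glb1 and Neu1, the partners of Ctsa in the lysosome, were not called. Glb1, beta-galactosidase, measured 284 and 292 in L929 and 316 and 335 in NIH3T3, a log2 difference of -0.17 (95% interval -0.41 to 0.073, limma adjusted p = 0.22). Neu1, the sialidase, measured 107 and 107 against 109.9 and 113 (-0.054, interval -0.44 to 0.33). Neither interval reaches the -1.09 of Ctsa, although the differences between these genes were not themselves tested. Lipa, the acid lipase of cholesteryl esters, gave a fold of 1.28 toward NIH3T3 (adjusted p = 0.028) with a probe set in the other direction at 1.02. Ppt1, which removes palmitate from proteins, gave a fold of 1.23 toward L929 (adjusted p = 0.033), with another probe set at -0.54. Among all members, 21 had several tested probe sets, of which 14 had them on the same side of 0 and 7 on both sides.

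Of the 6 measured membrane proteins 3 were lower in L929 and 0 were higher. Lamp2, the glycoprotein that lines the lysosomal membrane and serves in chaperone-mediated autophagy, measured 1109.9 and 917 in L929 and 1520.3 and 1974 in NIH3T3. The lines did not overlap, at 1.71-fold lower (log2 difference -0.78, SE 0.15, limma adjusted p = 0.0033), and all 4 Lamp2 probe sets lay between -0.82 and -0.51. Lamp1, its relative of similar structure, gave 2993 and 2964 against 3718 and 3011 and was not called (-0.17, 95% interval -0.50 to 0.17). Mcoln1, the cation channel TRPML1 that releases lysosomal calcium, gave 127 and 166 in L929 and 253 and 257 in NIH3T3, 1.72-fold lower (log2 difference -0.78, SE 0.16, adjusted p = 0.0038). Its 3 tested probe sets ran from -0.78 to -0.20, and averaged they gave -0.57, just under the fold threshold. The -0.20 came from a probe set close to the filter level, at 17.4 to 24.9 over the 4 arrays. With the values as deposited the Mcoln1 difference was -1.06 but missed the threshold (adjusted p = 0.088). Scarb2, the receptor LIMP-2 that carries glucocerebrosidase to the lysosome, leaned the other way, at 555 and 598 in L929 and 436 and 465 in NIH3T3. Its fold was 1.27 (adjusted p = 0.019), and both probe sets gave nearly the same difference, 0.35 and 0.37. Cln3, the membrane protein of juvenile neuronal ceroid lipofuscinosis, gave 76.0 and 81.8 against 49.7 and 51.9 (log2 difference 0.56, adjusted p = 0.061). It was called higher with quantile normalization (0.66) and with median scaling (0.62).

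Cd68, or macrosialin, is a membrane glycoprotein best known from macrophages. It was dim in both lines, at 32.6 and 30.6 in L929 and 66.6 and 64.1 in NIH3T3, 1.85-fold lower in L929 (log2 difference -0.89, SE 0.24, limma adjusted p = 0.015). The call was lost with the values as deposited (-1.13, limma adjusted p = 0.05). It was also lost without L929 replicate 2 and without NIH3T3 replicate 1, where 1 line is a single sample. There the difference stayed at -0.85 and -0.86. Of 13 macrophage marker genes 7 were tested, with Cd14 lower, at 54.2 and 41.3 against 238 and 215, and Lyz2 higher, at 36.9 and 43.5 against 17.3 and 6.25. The summed signal of the 13 was 358 to 381 in L929 and 505 to 510.1 in NIH3T3. Cd14 made up this gap, and without Cd14 the sum was higher in L929. Of the 7 tested, 4 had a log2 difference above 0 and 3 below. On all 4 arrays 5 of the 13 lay above the filter level (Csf1r, Adgre1, Spi1, Laptm5 and Cd14) and 3 below it (Ptprc, Itgam and Aif1). Csf1r, the receptor of a macrophage growth factor, measured 93.3 and 72.9 in L929 and 80.6 and 93.0 in NIH3T3. Ptprc, which marks all white blood cells, reached 11.8 at most. The part of such cells in the Cd68 result was not tested. In bulk RNA, fewer cells with a transcript and less transcript per cell cannot be told apart.

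Of the 3 regulators only Mitf was called, a list too short to set a share beside the 17.6% of all genes. Mitf, the factor of melanocytes and osteoclasts that also acts on lysosomal genes, measured 38.1 and 48.5 in L929 and 127 and 115 in NIH3T3. It was 2.53-fold lower in L929 (log2 difference -1.34, SE 0.22, limma adjusted p = 0.0013), from a probe set that was dim in both lines but above the filter level on all 4 arrays. Tfe3 gave 397 and 445 in L929 and 599.8 and 499 in NIH3T3. Its fold of 1.30 toward NIH3T3 had an adjusted p of 0.033 but stayed under the fold threshold. Tfeb was on the other side of 0, at 66.2 and 48.1 against 39.6 and 27.2, and its difference of 0.66 had a wide interval of 0.0075 to 1.31 (adjusted p = 0.09). Of 7 markers of melanocytes and osteoclasts only 2, Tyr and Dct, were tested, and 0 of these were called. On all 4 arrays Tyr and Dct lay above the filter level, at 19.0 to 30.2, and 3 of the 7 lay below it.

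The promoters of the members were searched for the E-box that this family of factors binds, so that members with and without it could be set side by side. Windows from 250 bases before to 50 after each annotated start came from RefSeq, build GRCm38.p6, and 37 of the 41 measured members had at least 1. The letters CACGTG, which read the same on both strands, were present in a window of 13 of 37 members (35.1%), beside 8.09% of all 27025 genes in the table. The longer form TCACGTG, or CACGTGA on the other strand, which contains the shorter one, was found for 11 members (29.7%) and 4.29% of all genes. Counted by window, the shorter form was in 28.3% of 46 member windows and 7.15% of all 32851 windows, all of 300 bases. A match is a description of letters and not a binding site.

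Stretches around a match are printed for 6 members that were lower in L929 and for 4 that were not called, to show that the same letters stand before both kinds. Each runs 5′ to 3′ on the gene's strand, ends before an annotated start (for Ctsa not the only one), and has CACGTG in capitals. The lower members are listed first and Lamp1 opens the others.
Gla, chrX:134601167-134601226, minus strand: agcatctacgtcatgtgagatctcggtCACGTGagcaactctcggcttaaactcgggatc
Gaa, chr11:119267796-119267855, plus strand: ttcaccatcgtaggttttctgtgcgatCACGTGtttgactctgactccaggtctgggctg
Naglu, chr11:101069994-101070053, plus strand: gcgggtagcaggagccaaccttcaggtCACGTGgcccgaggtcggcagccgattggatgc
Ctsa, chr2:164833734-164833772, plus strand: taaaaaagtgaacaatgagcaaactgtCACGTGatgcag
Ctsd, chr7:142387893-142387952, minus strand: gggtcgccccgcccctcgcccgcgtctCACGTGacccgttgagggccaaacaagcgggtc
Mcoln1, chr8:3500447-3500506, plus strand: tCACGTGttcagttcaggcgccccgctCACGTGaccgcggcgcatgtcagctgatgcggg
Lamp1, chr8:13159119-13159160, plus strand: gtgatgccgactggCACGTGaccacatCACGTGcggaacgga
Glb1, chr9:114401003-114401062, plus strand: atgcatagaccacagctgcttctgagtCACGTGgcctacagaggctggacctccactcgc
Lgmn, chr12:102439109-102439168, minus strand: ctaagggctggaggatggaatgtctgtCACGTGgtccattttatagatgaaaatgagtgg
Arsa, chr15:89477425-89477467, minus strand: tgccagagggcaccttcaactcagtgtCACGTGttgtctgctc

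The printed stretches were chosen among the 11 members with the longer form, so each capital run has a T before it or an A after it. Ctsl, a lower member, and the untested Ctsf had only the shorter form and are not printed. Cln3, which was not called, had 2 matches of the longer form and is also not printed. Lamp1 had 4 matches within its window, of which 2 are shown, and Mcoln1 had 2, both shown. Gla, Ctsa and Ctsd had 2 matches each, of which 1 is shown. The shorter form was present in 7 of 14 lower members with a window, in 5 of 18 that were not called and in 0 of 2 that were higher. Thus Gla at -2.38, Naglu at -1.10 and Ctsd at -0.93 carried it. So did Lamp1 at -0.17, Glb1 at -0.17 and Lgmn at -0.056, and, above 0, Cln3 at 0.56. Lower members without it included Arsb, Lamp2 and Mitf. Ctsh, Asah1, Ctsb and Galns were not analysed here for motifs.

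**Figure D3:**
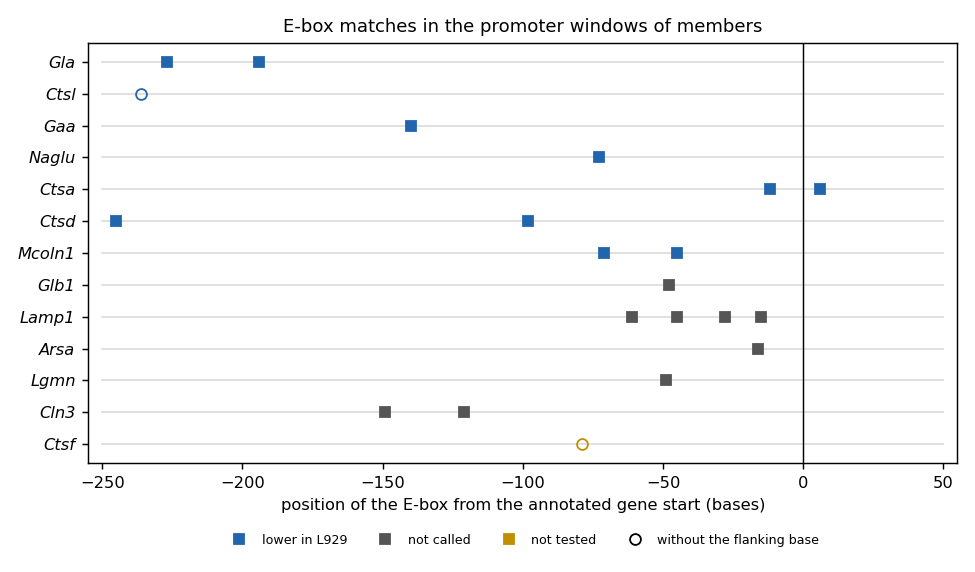
The map of E-box matches shows the position of each CACGTG from the annotated start on the x axis, in bases, for the 13 members with a match, ordered from the most negative log2 difference, with the untested Ctsf last. Filled squares have the flanking T or A and open circles do not. Lamp1 has 4 matches close to its start, while matches of Ctsd, Ctsl and Gla lie farthest from theirs.

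The members lay on many chromosomes, and those on the X chromosome were lower or below 0. Gla, Ids, Lamp2 and Tfe3 are X-linked, with log2 differences of -2.38, -0.60, -0.78 and -0.37, and 3 of the 4 were called lower. All 386 tested X-linked genes had a median of -0.21 with 26.9% called lower, beside 0.02 and 17.3% for autosomal genes. On the autosomes 12 of 34 tested members were called lower, with a median of -0.32. Ctsl and Arsb, both lower, are on chromosome 13, which had the highest autosomal median, 0.24 over 469 tested genes. On chromosome 11 (median -0.083 over 1059 tested genes) 3 of 4 tested members were called lower. On chromosome 9 (median 0.10 over 712 tested genes) 0 of 3 were called lower. These autosomes are examples picked among all. The part of the chromosome in these differences was not tested.

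Other lysosomal genes, listed by role and not members, were called in both directions. Of 98 tested genes 17 were higher and 18 lower in L929, which is 17.3% and 18.4%, close to the shares of all genes given above, with a median of -0.13. Among 23 further hydrolases and their cofactors 5 were higher (21.7%) and 8 lower (34.8%). Ctsk, cathepsin K, a collagen-degrading protease of osteoclasts, measured 579.7 and 544 in L929 and 15.5 and 24.8 in NIH3T3, where 1 of 2 arrays passed the filter level, a 20.5-fold excess (log2 difference 4.36, SE 0.20, limma adjusted p = 1.3e-06).  Fuca2, a fucosidase, was 5.06-fold higher at 345 and 305 against 59.1 and 56.2 (log2 difference 2.34, SE 0.15, adjusted p = 8.4e-06). Ctse, cathepsin E, was 3.72-fold higher by a probe set that may match more than its own transcripts (_s_at), whereas its other, dimmer probe set stood at -0.71. Ggh, gamma-glutamyl hydrolase, an enzyme of folate turnover, was below the filter level in L929, at 2.31 and 1.92 against 119 and 137, so it was lower by at least 7.40-fold (limma adjusted p = 1.5e-05). Ctso, cathepsin O, was 3.13-fold lower at 32.5 and 28.9 against 107 and 119. Dpp7, a dipeptidyl peptidase, was 2.32-fold lower, with a dim probe set at 0.073.

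Heparan sulfate enzymes outside the member list included Hgsnat, the acetyltransferase that acts before Naglu, which was 1.55-fold lower at 182 and 256 against 358 and 322 (limma adjusted p = 0.013). Sgsh, the sulfamidase of the same pathway, was not called at -0.38 (95% interval -1.15 to 0.40). Sumf1, which activates all sulfatases, was 1.65-fold lower at 234 and 190.1 against 321 and 387 (adjusted p = 0.004). These 3 genes were chosen after their values were seen.

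The V-ATPase, the proton pump that acidifies the lysosome, had 3 of 18 tested subunits lower (16.7%, near the 17.6% of all genes) and 1 higher. The median was -0.27, and 15 of the 18 lay below 0, beside 49.2% of all genes. For 12 of them both L929 arrays lay below both NIH3T3 arrays, beside 36.2% of all genes. Atp6v1h, a regulatory subunit, was 2.00-fold lower at 383 and 373 against 808 and 727 (limma adjusted p = 8.5e-05), with a dim second probe set at -0.0087 and an average of both at -0.51, under the fold threshold. Atp6v1e1 was 1.74-fold lower and Atp6v1g1 1.67-fold lower, the latter not called without L929 replicate 2 (adjusted p = 0.074). Atp6v1c1 went the other way, 1.68-fold higher (adjusted p = 0.00075), a call lost with the values as deposited (0.47).

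Of 5 tested protease inhibitors 3 were higher and 0 lower in L929, a list too short to set a share beside the 17.3% of all genes. Cst6, cystatin M/E, which inhibits legumain and cathepsin L, measured 383 and 287 in L929 and 2.57 and 8.65 in NIH3T3, below the filter level there, at least 19.2-fold higher (limma adjusted p = 6.4e-06). Serpinb6b and Serpinb6a, serpins best known as inhibitors of serine proteases, were 3.26-fold and 1.89-fold higher, and for Serpinb6b 1 of the 2 NIH3T3 signals passed the filter level. Serpinb6a was not called with the values as deposited (adjusted p = 0.068). The widely expressed cystatins Cst3 and Cstb differed by 0.12 (95% interval -0.25 to 0.50) and 0.083 (-0.23 to 0.40) and were not called. Both were chosen after their values were seen.

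Transporters, sorting receptors and the mTORC1 machinery also held calls in both directions. Of 22 tested membrane proteins and transporters 3 were higher (13.6%) and 4 lower (18.2%). Slc11a1, the divalent metal transporter of phagocyte lysosomes known as NRAMP1, was 8.98-fold higher at 369.8 and 366 against 35.9 and 31.9 (log2 difference 3.17, SE 0.16, limma adjusted p = 2.4e-06). Its relative Slc11a2 was 2.15-fold higher, a call lost with the values as deposited (0.83). Abca2, a lipid transporter, was 2.22-fold lower (adjusted p = 0.005). Of 15 sorting genes 3 were higher and 2 lower, led by Sorl1, whose call was lost without L929 replicate 2 (adjusted p = 0.058) or NIH3T3 replicate 2 (0.091). The mannose 6-phosphate receptors M6pr and Igf2r, also chosen after their values were seen, were not called, at -0.34 and 0.54. Of 15 genes of mTORC1 and TFEB control 2 were higher (13.3%) and 1 lower (6.67%). Lamtor4, of the Ragulator complex, was 1.80-fold higher, the GTPase Rheb 1.61-fold higher and the GTPase Rraga 1.57-fold lower. With the values as deposited these 3 were not called, at 0.56, 0.40 and -0.93 (adjusted p = 0.43, 0.33 and 0.099).

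**Figure D4:**
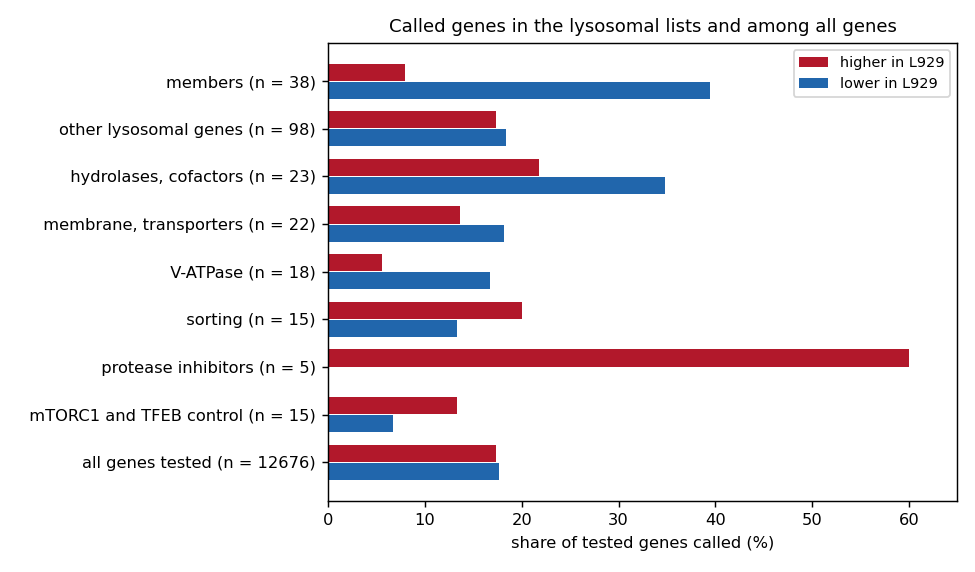
The bar chart of called shares gives the percentage of tested genes called higher (red) or lower (blue) in L929 for the members, for the other lysosomal genes in all and by role, and for all genes tested, with the number tested in brackets. The blue bar of the members reaches 39.5% against 17.6% for all genes, and the bars of the smallest lists rest on as few as 5 genes.

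**Figure D5:**
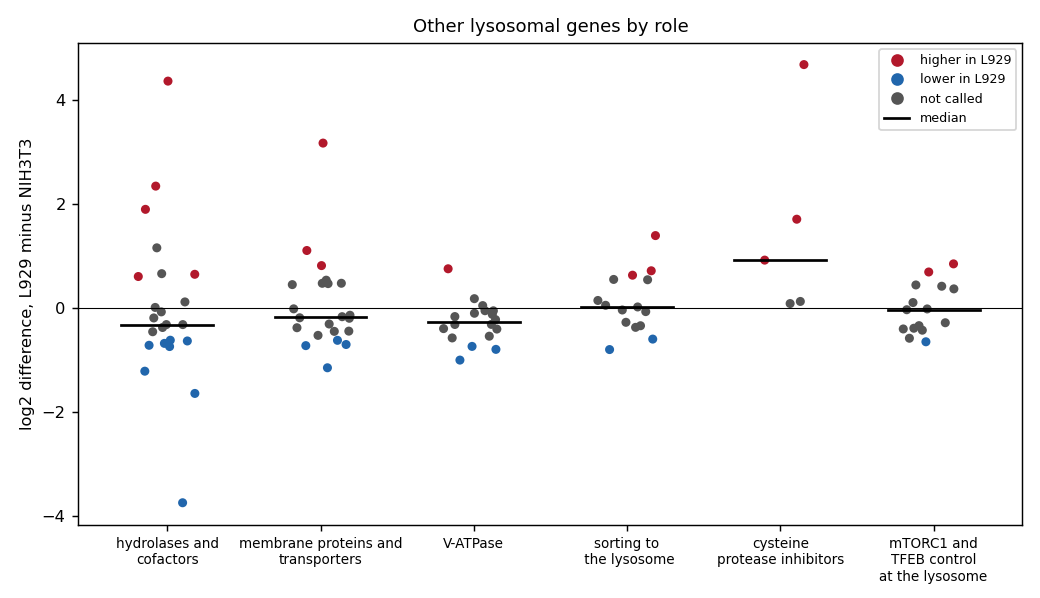
The plot of other lysosomal genes shows the log2 difference of each tested gene as a point, by role, with a black line at the median of the role. Cst6 and Ctsk are the highest points and Ggh the lowest, and Atp6v1h and Atp6v1c1 are the ends of the V-ATPase column.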

How the data were processed

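The authors deposited 1 intensity per probe set from Affymetrix GeneChip arrays of the mouse genome. Per the submitters' processing notes these are MAS5 signals, with version and scaling target not given in the sources used here. Lines and replicate numbers came from the sample titles. Of 45037 probe sets other than controls, 34945 carried a single symbol in the platform annotation, 932 several and 9160 none. Of the single symbols 34741 also matched a GRCm38.p6 gene table, and 0 of them changed.

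Arrays were scaled to the geometric mean of their trimmed means (2% left out at each end), by factors of 1.07, 1.14, 1.13 and 0.726. The added offset was the 25th percentile. The 4 arrays were fitted by limma 3.58.1 (lmFit, then eBayes with a trend of variance on mean, under R 4.3.3), with each gene's brightest tested probe set, and p-values were adjusted after Benjamini and Hochberg over 12676 genes. Means ± SD are of scaled signals. Where both samples of a line lay below the filter level, the fold is a bound, from the other line's mean log2 signal to that level, which is a percentile of signals and no detection limit. Alternatives numbered 17, and the fit was tested on simulated data.

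The members and gene lists were chosen with earlier results of these data known. Named genes are all measured members and genes of each other list, with exceptions stated. The latter are among the up to 3 called genes per direction by size of difference. That rule also gave Laptm4b, Ap3b1 and Gga3 (higher) and Cln6, Slc29a3, Gnptg and Vps26a (lower), which are not described above. The calls of these genes were lost in 2 to 5 of the alternatives. Promoter windows were searched by exact match.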

Additional observations from a re-analysis of the deposited data

How the results depend on the processing

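All 18 called members were recomputed under 17 alternatives, and 11 of them (Ctsd, Ctsh, Ctsl, Gla, Gaa, Manba, Naglu, Arsb, Asah1, Lamp2 and Mitf) kept direction and call in every alternative that tested them. The lower count of the members ran from 11 to 16 and the higher count from 2 to 4, and leaving out any 1 array gave 12 to 13 lower. The lowest count, 11, came with probe sets ending in _s_at, _x_at or _a_at left out, where 28 members were tested. The members' median was -0.33 with median scaling, -0.67 as deposited, -0.35 with probe sets averaged, -0.24 without those probe sets, and -0.44 to -0.32 with 1 array left out. As deposited, 7 other lysosomal genes were higher and 7 lower, and of all calls 31.3% were higher, beside 49.5% after scaling (794 higher and 1745 lower, beside 2187 and 2228).

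Signs turned for the following genes. With median scaling Lgmn stood at 0.0055, Man2b1 at 0.0019 and Neu1 at 0.0045, and with quantile normalization Neu1 at 0.049. As deposited Galns stood at -0.25 and Gusb at -0.11. With probe sets averaged Lipa stood at 0.17 and Ppt1 at -0.064, and without the suffixed probe sets Ctse at -0.71 and Dpp7 at 0.073. With 1 array left out Lgmn ran from -0.15 to 0.035, Galns from -0.046 to 0.088 and Galc from -1.39 to 0.43. The replicate numbers are not stated to pair samples, and deviations of same-numbered arrays correlated at 0.011. With the replicate block 3 members were higher and 14 lower, and 18 other lysosomal genes were higher and 18 lower. The cause of these changes was not tested beyond what the settings themselves change. Dim probe sets near the filter level limit the dimmer members.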
